A study of Homo sapiens with 44 samples.

Results

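Periostin (POSTN) and 9 other genes of matricellular and adhesive matrix proteins were followed in colon fibroblasts exposed to single cytokines. The other members were TNC, THBS1, THBS2, SPARC, CCN1, CCN2, FN1, TGFBI and FBLN1. They were taken by symbol, 10 of the 40663 symbols in the table of estimated counts, and all 10 were among the 9513 genes that passed the filter on low counts. The lowest count of any member in any library was 39 (THBS2 after IFNγ), so that no member was near the limit of detection.

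Matricellular proteins are secreted into the extracellular matrix, where they act less as scaffold than as signals, by binding integrins, other receptors, growth factors and collagen. They are scarce in most resting adult tissue and are made by fibroblasts during wound repair, inflammation and fibrosis, in the bowel wall as elsewhere. Periostin and TGFBI share fasciclin domains, tenascin-C loosens cell attachment, thrombospondins bind CD36, CD47 and latent TGF-β, CCN1 and CCN2 are immediate targets of YAP and TEAD, SPARC binds collagen, and fibronectin and fibulin-1 connect cells to the fibrillar matrix.

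Bulk RNA-seq had been made of Ccd-18Co, an established fibroblast line from normal human colon, in 11 groups of 4 libraries. Cells were seeded at 25000 per well of a 48-well plate, kept without serum for 72 h, and then left unstimulated or given TNF, IL-1β, IFNα, IFNγ, TGF-β1, IL-13, oncostatin M (OSM), IL-6, IL-22 or IL-17A for 24 h. The dose was 10 ng/ml for each cytokine except IL-1β, which was used at 0.1 ng/ml per the labels and methods (a legend gives 0.01 ng/ml). All groups were the same line, with no epithelial or immune cells beside it, and the labels do not say whether the 4 replicates were separate cultures, so that p-values measure only the spread between these libraries.

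Total counts were between 742173 and 2213424 per library, and 3 counts, taken as the limit of detection, corresponded to 1.39 to 3.85 CPM (counts scaled to the normalized library size). The 8 fibroblast markers were detected in every group, with summed mean levels between 24220 and 45420 CPM. Of 5 smooth muscle markers, ACTG2 reached 2169 counts in a library and DES at most 4. Their summed mean level was 624.1 CPM without stimulation and lay between 290.7 CPM (IL-1β) and 793 CPM (TGF-β1). Of the 4 tested, 1 was called lower, after IL-1β alone, beside 3.92% of all genes. Of 15 markers of epithelium, endothelium and leukocytes, EPCAM, CDH1, PECAM1, CDH5, PTPRC and CD3E reached at most 2 counts in any library, and the others at most 4, except TEK (endothelium, 8 counts), VIL1 (epithelium, 44 counts) and CD68. VIL1, at 12.4 CPM without stimulation, was between 7.32 and 17.8 CPM after the cytokines, with 0 calls by edgeR. The macrophage marker CD68 rose from 2.87 CPM to 59.1 CPM after IFNα and was also called higher after IFNγ (log2 fold change 2.15). The other 4 leukocyte markers stayed at or below 4 counts. Among 9 known response genes, CCL26 rose to 908 CPM after IL-13, MX1 to 991.1 CPM after IFNα, SOCS3 to 33.6 CPM after OSM and CXCL1 to 6853 CPM after IL-1β, while CCL11 alone rose after IL-6 and 0 were called by edgeR after IL-22 (2 at an unadjusted p under 0.05). In bulk RNA, fewer cells that express a gene and less RNA per cell cannot be told apart.

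The promoters of the 3 members that rose most after IL-13 (POSTN, TNC, THBS1) and of CCN2, which rose most after TGF-β1, are shown so that a reader can see which factor motifs lie near their starts. Each runs 5′ to 3′ along the gene, from 250 bases before the RefSeq start to 50 after it, on GRCh38.p14. Capitals mark matches, on either strand, to STAT6 (TTCNNNNGAA), TEAD (GGAATG), SMAD (CAGACA), AP-1 (TGANTCA) or TATA letters (TATAAA).
POSTN, chr13:37598719-37599018, minus strand: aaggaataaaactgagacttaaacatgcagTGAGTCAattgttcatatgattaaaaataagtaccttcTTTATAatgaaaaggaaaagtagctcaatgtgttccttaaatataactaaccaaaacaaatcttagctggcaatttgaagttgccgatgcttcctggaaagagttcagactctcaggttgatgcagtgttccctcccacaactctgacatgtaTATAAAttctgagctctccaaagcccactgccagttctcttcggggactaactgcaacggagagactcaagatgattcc
TNC, chr9:115118108-115118407, minus strand: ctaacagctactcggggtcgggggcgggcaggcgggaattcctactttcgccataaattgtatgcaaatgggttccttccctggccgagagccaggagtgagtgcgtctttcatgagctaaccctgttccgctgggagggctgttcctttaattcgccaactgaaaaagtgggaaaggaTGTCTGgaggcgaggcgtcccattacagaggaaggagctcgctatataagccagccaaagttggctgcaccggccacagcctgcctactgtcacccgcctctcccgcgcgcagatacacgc
THBS1, chr15:39580829-39581128, plus strand: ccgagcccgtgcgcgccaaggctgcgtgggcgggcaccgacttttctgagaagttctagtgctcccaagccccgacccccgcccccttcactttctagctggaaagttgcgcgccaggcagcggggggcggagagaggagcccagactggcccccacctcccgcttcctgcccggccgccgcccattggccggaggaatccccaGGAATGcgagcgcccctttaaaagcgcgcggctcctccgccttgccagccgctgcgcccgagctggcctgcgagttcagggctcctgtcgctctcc
CCN2, chr6:131951323-131951622, minus strand: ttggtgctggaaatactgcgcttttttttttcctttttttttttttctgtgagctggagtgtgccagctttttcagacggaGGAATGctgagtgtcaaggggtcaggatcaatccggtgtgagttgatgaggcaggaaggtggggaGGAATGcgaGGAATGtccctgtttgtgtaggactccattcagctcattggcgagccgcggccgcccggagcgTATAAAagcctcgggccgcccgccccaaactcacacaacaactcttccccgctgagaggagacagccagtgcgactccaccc

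In the POSTN promoter an AP-1 match began 220 bases before the start. Its TATA letters began 29 bases before the start and, reversed on the other strand, 182 bases before it. CCN2 held 3 TEAD matches, beginning 169, 104 and 95 bases before its start. RefSeq windows were found for 9 of the 10 members. Among all 35116 promoters of this length, 6.44% held the STAT6 letters, 14.0% the TEAD letters, 16.9% the SMAD letters, 7.71% the AP-1 letters and 11.5% the TATA letters. Among the 9 members, TEAD letters were found in 4 (CCN2, SPARC, THBS1 and THBS2) and TATA letters in 3 (CCN2, POSTN and THBS2). AP-1 letters were found in POSTN alone and SMAD letters in THBS2 and TNC. STAT6 letters were found in THBS2 alone, where they overlapped its TEAD matches. Matches are descriptions of letters and not binding sites.

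TNF and IL-1β lowered most of these genes, and TGF-β1, IL-13, OSM and IFNα each raised 3 or 4 of them. A change was called at an adjusted p under 0.05 by the quasi-likelihood test of edgeR, adjusted after Benjamini and Hochberg over all 9513 genes. Where libraries of 2 groups are said below not to overlap, this describes the same values as the test. The share of such gaps over all genes was not counted. Of 100 pairings of a member with a cytokine, 15 were called higher and 18 lower than in unstimulated cells. After TNF 6 of 10 members fell and 0 rose, beside 6.09% of all tested genes that fell. IL-1β lowered 7 of 10, beside 3.92% of all genes, and IFNγ lowered 3, beside 5.13%. IL-17A lowered 2, beside 0.925%. The members were chosen with earlier results of these data known, and each had at least 39 counts in every library. Some other tested genes had fewer. Member counts and shares of all genes are therefore set side by side, and their difference was not tested.

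IL-13 raised 4 of 10 members, beside 1.53% of all genes, TGF-β1 raised 4, beside 2.61%, OSM raised 4, beside 1.42%, and IFNα raised 3, beside 4.99%. The median log2 fold change of the 10 members was -0.79 after TNF, -0.87 after IL-1β and -0.62 after IL-17A, and between 0.07 and 0.24 after these 4 cytokines, where the median of all genes lay between -0.05 and 0.00 after every one of the 10 cytokines. All 10 comparisons use the same 4 unstimulated libraries, so their values are set side by side and not counted as independent.

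Few of these changes were large. Under the further condition of an absolute log2 fold change above 1.5, which the study's methods use, the members left were THBS1 after IL-1β (2.78% of all genes passed), CCN2 after TGF-β1 (1.70%), and POSTN and TNC after IL-13 (1.47%). Under that condition 0 members were left after TNF (4.19% of all genes), IFNα (3.98%), IFNγ (3.53%), OSM (1.30%), IL-6 (0.0105%), IL-22 (0%) and IL-17A (0.452%).

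**Figure D1:**
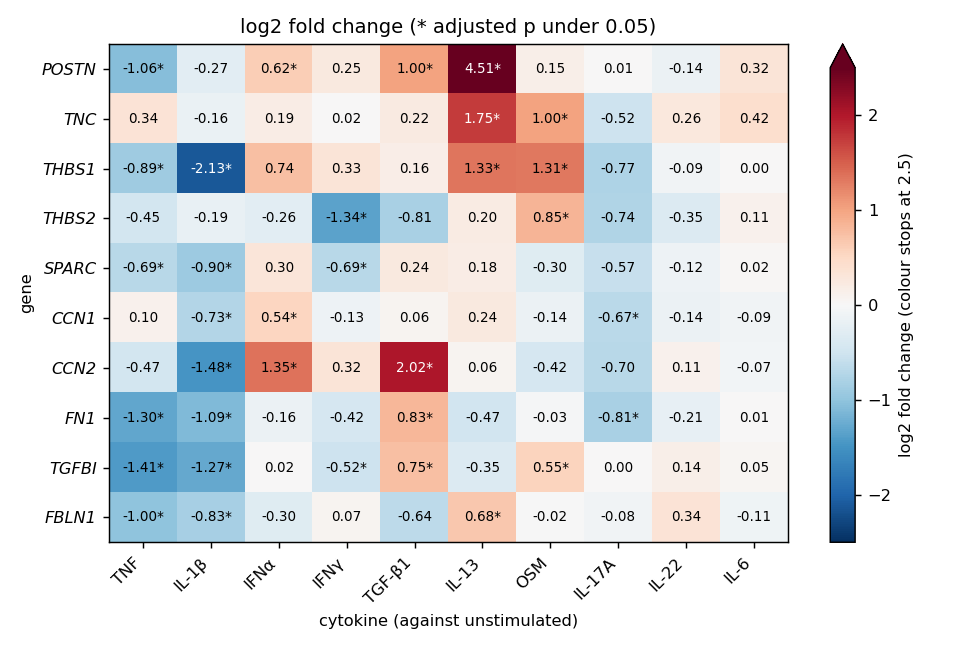
The log2 fold change of each member (rows) after each cytokine (columns) against unstimulated cells, with an asterisk where the adjusted p was under 0.05 and colour stopping at 2.5. The TNF and IL-1β columns hold 13 of the 18 called falls, and the single value of 4.51 belongs to POSTN after IL-13.

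POSTN encodes periostin, a fasciclin protein that binds αv integrins and helps crosslink collagen. It lies on chromosome 13 (37562583 to 37598844, minus strand) with a canonical transcript of 23 exons and 3301 bases in GENCODE 44. Its levels in the 4 unstimulated libraries were 280.1, 465.1, 363.8 and 354.5 CPM. After IL-13 they were 6071, 6169, 10311 and 10767 CPM. The lowest IL-13 library was 7.05 times the highest library of any other group, which was 860.8 CPM after TGF-β1. The change was 4.51 ± 0.22 (log2 fold change ± SE, n = 4 and 4, adjusted p = 3.66e-20), and between 4.39 and 4.66 with any 1 library of the 2 groups left out.

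After TGF-β1, POSTN stood at 651.9, 722.1, 696.0 and 860.8 CPM, also above every unstimulated library, a 2.00-fold rise (1.00 ± 0.19, adjusted p = 0.000584). After TNF the levels were 191.3, 235.1, 145.6 and 129.1 CPM, all below the unstimulated libraries (-1.06 ± 0.20, adjusted p = 0.000117). IFNα gave 399.5, 537.3, 651.4 and 656.4 CPM, a range that overlaps the unstimulated one (0.62 ± 0.19, adjusted p = 0.0299). That call ended without unstimulated replicate 1 (adjusted p = 0.115) or 4 (0.0679), without IFNα replicate 3 (0.107) or 4 (0.0876), or with only the 2 groups in the fit (0.0618). In the order of the 11 group means, from 8329.5 CPM after IL-13 to 175.3 CPM after TNF, only the first pair of neighbours (IL-13 and TGF-β1) and the last (IL-1β and TNF) had ranges that did not overlap.

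**Figure D2:**
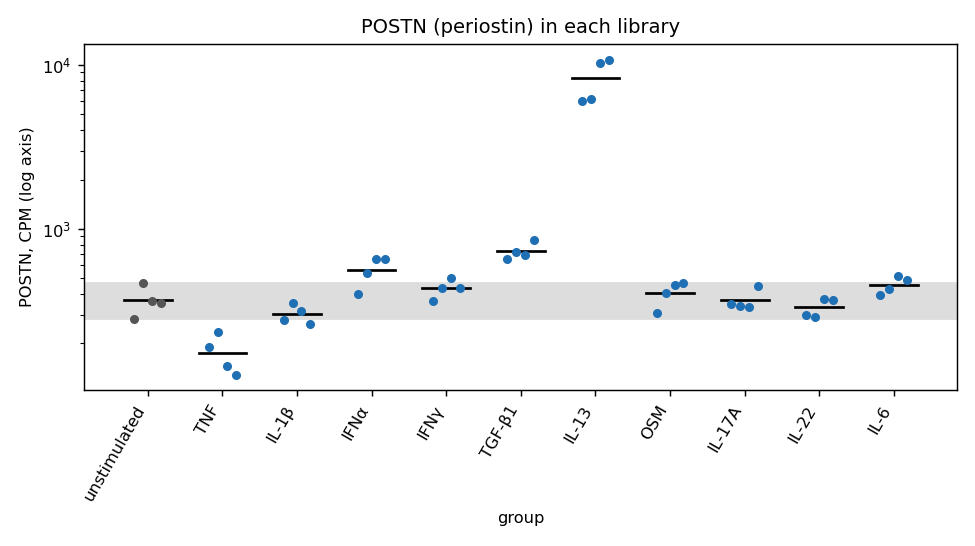
POSTN in CPM on a log axis for each of the 44 libraries, by group, with bars at the group means and grey over the range of the unstimulated libraries. The 4 IL-13 libraries lie between 6071 and 10767 CPM, and the TNF libraries between 129.1 and 235.1 CPM.

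TGFBI encodes a second fasciclin protein, named for its induction by TGF-β, which links collagen to integrins. It lies on chromosome 5 (136028988 to 136063818, plus strand) and had the smallest coefficient of variation of the 10 between unstimulated libraries (7.66%), with 1265, 1218, 1099 and 1083 CPM. TNF lowered it to 485.8, 479.7, 419.4 and 368.5 CPM and IL-1β to 500.5, 519.7, 466.9 and 439.7 CPM. All 8 values were below the lowest unstimulated library. These falls were -1.41 ± 0.14 (adjusted p = 1.00e-10) and -1.28 ± 0.14 (adjusted p = 1.68e-09).

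TGF-β1 raised TGFBI to 2280.2, 2280.0, 1737 and 1551 CPM (0.75 ± 0.13, adjusted p = 0.000172), and OSM to 1644, 1636, 1572 and 2002 CPM (0.55 ± 0.13, adjusted p = 0.00746). Every library of both groups lay above the unstimulated ones. IFNγ lowered it to 871.5, 935.3, 758.6 and 695.6 CPM (-0.52 ± 0.13, adjusted p = 0.00683), a call that ended without IFNγ replicate 4 (adjusted p = 0.0593). The OSM and IFNγ calls also ended with only the 2 groups in the fit (adjusted p = 0.0542 and 0.142) and with all genes of any count in it (0.0684 and 0.0680). After IL-13 the 4 values, between 833.8 and 979.8 CPM, also lay below all unstimulated ones, but the change of -0.35 ± 0.13 was not called (adjusted p = 0.150).

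TNC encodes tenascin-C, a hexameric glycoprotein of wounds and inflamed tissue that binds integrins and Toll-like receptor 4. It lies on chromosome 9 (115019575 to 115118207, minus strand). Unstimulated libraries had 384.4, 334.6, 177.3 and 273.2 CPM. IL-13 raised them to 1025, 939.6, 835.1 and 1135 CPM and OSM to 720.4, 515.2, 465.0 and 645.7 CPM. Both groups stood clear of the unstimulated range, with changes of 1.75 ± 0.26 (adjusted p = 7.67e-06) and 1.00 ± 0.25 (adjusted p = 0.0138). The OSM call ended without OSM replicate 1 (adjusted p = 0.0696) or unstimulated replicate 3 (0.0799) or 4 (0.0506). Tenascin-C was not called after the other 8 cytokines, with log2 fold changes between -0.52 after IL-17A and 0.42 after IL-6.

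THBS1 and THBS2 encode thrombospondin-1 and -2, trimeric proteins that restrain angiogenesis, of which the first also activates latent TGF-β. THBS1, on chromosome 15 (39581079 to 39599466, plus strand), had 668.4, 983.5, 1468 and 1172 CPM without stimulation. IL-1β lowered it to 256.3, 277.7, 193.1 and 254.9 CPM, the largest of the 18 called falls (-2.13 ± 0.27, adjusted p = 1.96e-07), with 0 overlap of the libraries. IL-13 raised it to 3060.3, 3459, 2076 and 2207 CPM (1.33 ± 0.27, adjusted p = 0.00105) and OSM to 1967, 2518, 2715 and 3473 CPM (1.31 ± 0.27, adjusted p = 0.00109). The 8 libraries of these 2 groups all exceeded the unstimulated ones, and the IL-13 and OSM ranges overlapped.

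TNF brought THBS1 to 535.2, 792.4, 445.7 and 536.2 CPM, which overlapped the unstimulated range. The change of -0.89 ± 0.26 was called (adjusted p = 0.0189), but no longer without unstimulated replicate 3 (0.114) or 4 (0.0552) or TNF replicate 1 (0.0612), 3 (0.0901) or 4 (0.0552). IFNα gave 1341, 1769, 1649 and 2420 CPM, a change of 0.74 ± 0.26 that was not called (adjusted p = 0.0644) but was without unstimulated replicate 3 (0.0209) or IFNα replicate 1 (0.0380), by DESeq2 (0.0355) and with all genes of any count (0.00115). TGF-β1 gave the widest spread for THBS1, with 675.3, 838.0, 1130 and 2150 CPM in its 4 libraries, and no call (0.16 ± 0.26, adjusted p = 0.816).

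THBS2, on chromosome 6 (169215780 to 169254050, minus strand), followed another order. Its unstimulated levels were 90.6, 125.4, 61.9 and 108.6 CPM. IFNγ lowered them to 45.9, 32.4, 44.2 and 29.9 CPM, below every unstimulated library (-1.34 ± 0.27, adjusted p = 0.000513). OSM gave 169.3, 129.8, 164.1 and 236.7 CPM, all above them (0.85 ± 0.26, adjusted p = 0.0445). The OSM call was close to the threshold and ended without unstimulated replicate 1 (adjusted p = 0.0813), 3 (0.182) or 4 (0.0738), or OSM replicate 1 (0.0873), 3 (0.0717) or 4 (0.172). After TGF-β1 THBS2 stood at 55.4 ± 20.3 CPM (SD, n = 4), not called against 96.6 ± 27.2 CPM (-0.81 ± 0.27, adjusted p = 0.0629), but called without unstimulated replicate 3 (0.0345) or TGF-β1 replicate 2 (0.0445), with all genes of any count (0.0478) and with a replicate block (0.0350).

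CCN2 encodes connective tissue growth factor, a mediator of fibrosis downstream of TGF-β and YAP, on chromosome 6 (131948176 to 131951372, minus strand). Its unstimulated levels were 203.2, 273.4, 424.3 and 289.6 CPM. TGF-β1 raised it to 1097, 1496, 1164 and 1063 CPM, and IFNα to 540, 643.3, 866.7 and 983.9 CPM. Both groups lay above all unstimulated libraries, with changes of 2.02 ± 0.21 (adjusted p = 6.55e-09) and 1.35 ± 0.21 (adjusted p = 4.96e-06). IL-1β lowered CCN2 to 85.3, 131.9, 101.0 and 109.0 CPM, below them all (-1.48 ± 0.22, adjusted p = 2.43e-06).

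CCN2 after TNF, at 215.3 ± 59.3 CPM (SD, n = 4), was not called (-0.47 ± 0.21, adjusted p = 0.158), though it was without TNF replicate 2 (0.0493). After IL-17A its 4 libraries, between 172.3 and 187.8 CPM, lay under the unstimulated range, again without a call (-0.70 ± 0.21, adjusted p = 0.0856), which was reached without unstimulated replicate 1 (0.0429), by DESeq2 (0.0349) and with all genes of any count (0.0356).

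CCN1 encodes CYR61, the nearest relative of CCN2 and another direct target of YAP and TEAD. It lies on chromosome 1 (85580761 to 85584589, plus strand) and varied little between unstimulated libraries, with 161.6, 144.4, 167.5 and 141.4 CPM. IL-1β lowered it to 89.3, 109.4, 107.4 and 64.2 CPM (-0.73 ± 0.16, adjusted p = 0.00144). IFNα raised it to 228.1, 236.4, 216.9 and 211.1 CPM (0.54 ± 0.16, adjusted p = 0.0187). Neither group touched the unstimulated range, although the IFNα call ended without unstimulated replicate 2 (adjusted p = 0.0596) or 4 (0.0635), or with all genes of any count (0.203).

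After IL-17A CCN1 had 109.5, 70.2, 117.8 and 87.3 CPM (-0.67 ± 0.16, adjusted p = 0.0172). That call ended without unstimulated replicate 1 (adjusted p = 0.0614) or IL-17A replicate 2 (0.136) or 4 (0.0759), with only the 2 groups (0.1105) or with all genes of any count (0.122). TGF-β1, which raised CCN2 4.05-fold, gave CCN1 a value of 160.4 ± 21.0 CPM (SD, n = 4) against 153.7 ± 12.8 CPM, with a 95% interval of the log2 fold change from -0.26 to 0.38.

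SPARC encodes osteonectin, a collagen-binding protein of remodelling tissue, on chromosome 5 (151661096 to 151686975, minus strand). Unstimulated libraries held 941.1, 818.0, 624.1 and 604.5 CPM. It fell after IL-1β to 431.9, 456.0, 356.4 and 352.2 CPM (-0.90 ± 0.19, adjusted p = 0.000834), after TNF to 512.6, 525.4, 426.9 and 387.3 CPM (-0.69 ± 0.19, adjusted p = 0.0104) and after IFNγ to 552.1, 503.4, 401.4 and 395.9 CPM (-0.69 ± 0.19, adjusted p = 0.0117). All 12 values were under the unstimulated ones, and SPARC was the single member that rose after 0 of the 10 cytokines.

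The TNF call of SPARC ended without unstimulated replicate 1 (adjusted p = 0.0539) or TNF replicate 4 (0.0592). Its IFNγ call ended without unstimulated replicate 1 (0.0580) or 2 (0.0512), IFNγ replicate 3 (0.0733) or 4 (0.0692), or with only the 2 groups in the fit (0.0919).

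FN1 encodes fibronectin, the adhesive glycoprotein on which collagen fibrils assemble, on chromosome 2 (215360440 to 215436073, minus strand). Its unstimulated levels were 1391, 1419, 971.7 and 1024 CPM. TNF lowered it to 500.6, 496.1, 472.7 and 488.5 CPM and IL-1β to 591.8, 603.8, 567.3 and 487.7 CPM. Every one of these 8 libraries lay below the unstimulated range (-1.30 ± 0.20, adjusted p = 8.60e-06, and -1.09 ± 0.20, adjusted p = 0.000148).

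TGF-β1 raised FN1 to 2694, 2633, 1739.5 and 1457 CPM, above all 4 unstimulated libraries (0.83 ± 0.20, adjusted p = 0.00776). With only the 2 groups in the fit, this call and that of TGFBI after TGF-β1 missed the threshold (adjusted p = 0.0842 and 0.0533). IL-17A gave 674.3, 742.0, 724.3 and 605.3 CPM, all lower than without stimulation (-0.81 ± 0.20, adjusted p = 0.0247). The IL-17A call ended without unstimulated replicate 1 (0.103) or 2 (0.147), or any 1 of the IL-17A libraries (0.0735, 0.0645, 0.0658 and 0.106 for replicates 1 to 4).

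FBLN1 encodes fibulin-1, a calcium-binding glycoprotein of elastic fibres and basement membranes, on chromosome 22 (45502238 to 45601135, plus strand). Unstimulated libraries had 206.6, 198.3, 254 and 179.7 CPM. TNF lowered it to 123.6, 127.5, 81.0 and 87.8 CPM (-1.001 ± 0.21, adjusted p = 0.000497) and IL-1β to 134.7, 143.8, 88.3 and 104.4 CPM (-0.83 ± 0.20, adjusted p = 0.00484). IL-13 raised it to 333.9, 368.3, 296.6 and 341.0 CPM (0.68 ± 0.20, adjusted p = 0.0433). The 3 groups each stood apart from the unstimulated libraries.

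The IL-13 call of FBLN1 was the closest to the threshold among the rises after IL-13. It ended without unstimulated replicate 1 (adjusted p = 0.0856), 2 (0.101) or 4 (0.141), IL-13 replicate 1 (0.0671), 2 (0.0966) or 4 (0.0730), or with all genes of any count (0.0575). After TGF-β1 FBLN1 had 116.2, 174.4, 134.3 and 113.0 CPM, every value below the unstimulated ones, but -0.64 ± 0.20 was not called (adjusted p = 0.0510). It was called without TGF-β1 replicate 2 (0.0286), by DESeq2 (0.0466) and with a replicate block (0.0120).

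**Figure D3:**
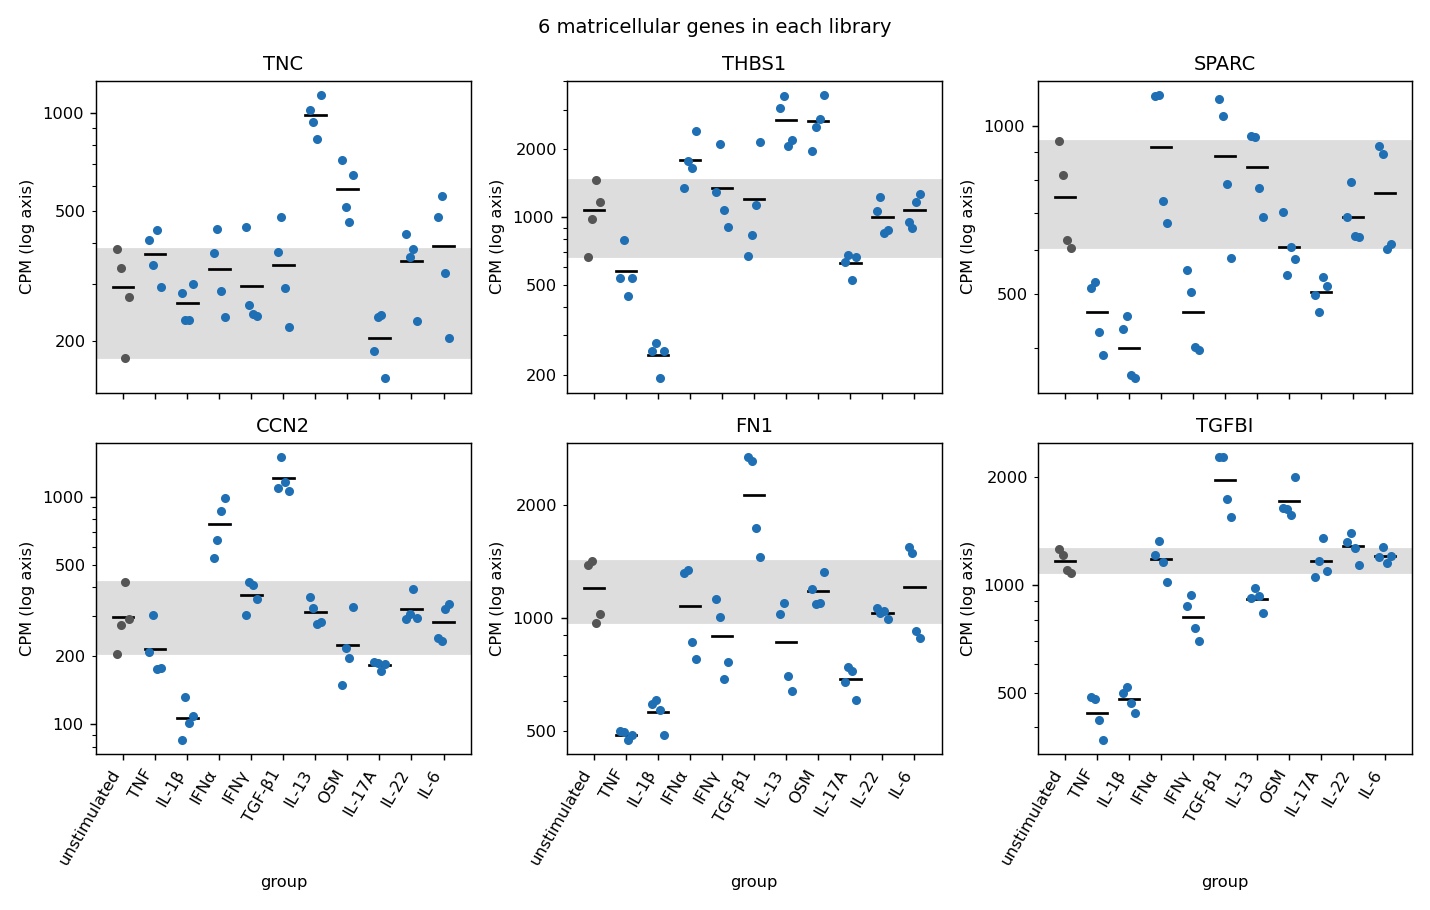
CPM on log axes for TNC, THBS1, SPARC, CCN2, FN1 and TGFBI in each of the 44 libraries, with bars at the group means and grey over the unstimulated range. TNC is highest after IL-13 (mean 983.6 CPM), CCN2 after TGF-β1 (1205 CPM), and FN1 and TGFBI lie below the grey band in all 8 TNF and IL-1β libraries.

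Levels of different genes were compared per kb of canonical transcript. Without stimulation TGFBI led with 430 ± 32.9 CPM per kb (SD, n = 4), followed by SPARC with 216.4 CPM per kb, while POSTN was sixth with 110.8 CPM per kb and THBS2 last with 17.0 CPM per kb. TGFBI was the highest of the 10 in 10 of the 11 groups. After IL-13 POSTN came first with 2523 CPM per kb, THBS1 second with 346.7 CPM per kb and then TGFBI with 337.8 CPM per kb.

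Summed over the 10 members, the level was 1357 ± 74.9 CPM per kb (SD, n = 4) without stimulation. It was 738.1 ± 105 CPM per kb after TNF and 656 ± 64.7 CPM per kb after IL-1β, and 4019 ± 591 CPM per kb after IL-13. Periostin made up 8.16% ± 1.51 (SD) of the sum in unstimulated cells and 61.7% ± 10.2 after IL-13, against 9.85% ± 2.16 after TGF-β1. Its IL-1β share of 14.0% ± 1.27 came with a POSTN level, 302.6 ± 41.3 CPM, that was not called different from unstimulated cells.

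**Figure D4:**
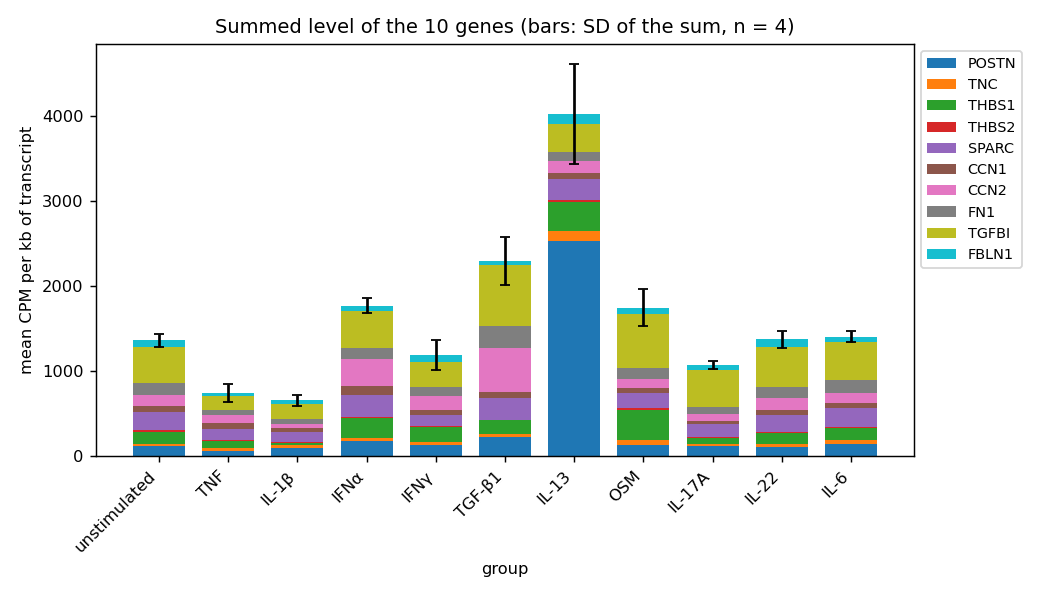
Stacked mean levels of the 10 members in CPM per kb of canonical transcript for each group, with the SD of the sum over 4 libraries. The IL-13 bar reaches 4019, of which POSTN is 2523, while the TNF and IL-1β bars reach 738.1 and 656.

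IL-13 and TGF-β1, both known to drive matrix production, differed in 8 of 10 members. In the direct comparison IL-13 libraries were higher for 5 members (6.39% of all genes were) and lower for 3 (6.05% of all genes). POSTN was higher by 3.51 ± 0.21 on the log2 scale (adjusted p = 1.04e-16), TNC by 1.53 ± 0.26 (adjusted p = 2.62e-05), FBLN1 by 1.32 ± 0.21 (adjusted p = 6.87e-06), THBS1 by 1.17 ± 0.27 (adjusted p = 0.00155) and THBS2 by 1.01 ± 0.27 (adjusted p = 0.00766). For all of these but THBS1 the libraries did not overlap.

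CCN2 was 3.88-fold lower after IL-13 than after TGF-β1 (log2 fold change -1.95 ± 0.21, adjusted p = 2.71e-09). FN1 was lower by 2.46-fold (-1.30 ± 0.20, adjusted p = 7.65e-06) and TGFBI by 2.14-fold (-1.10 ± 0.13, adjusted p = 3.79e-08), and the libraries of each of the 3 did not overlap. These 8 calls held with any 1 library left out. For SPARC and CCN1 the 95% intervals of the log2 difference were -0.44 to 0.32 and -0.14 to 0.50. Under the condition on fold change POSTN, TNC and CCN2 were left, where 4.82% of all genes were.

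**Figure D5:**
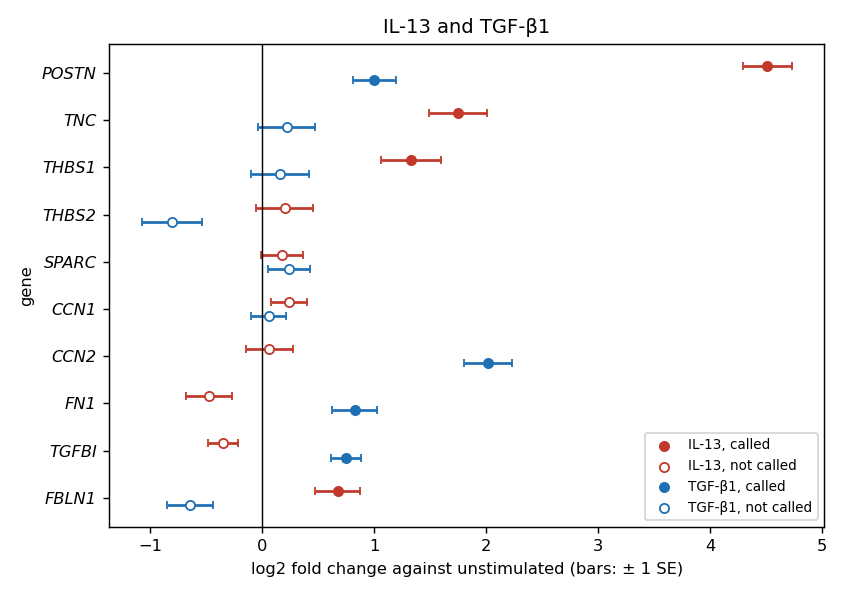
The log2 fold change against unstimulated cells of each member after IL-13 (red) and TGF-β1 (blue), with bars of 1 SE and filled points where the adjusted p was under 0.05. Only POSTN was called higher after both, by 4.51 and 1.00, while TNC, THBS1 and FBLN1 were called after IL-13 alone and CCN2, FN1 and TGFBI after TGF-β1 alone.

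TNF and IL-1β, which share much of their signalling through NF-κB, were also compared with each other, at doses that differ. After TNF 3 members were higher than after IL-1β (0.452% of all genes were) and 1 was lower (0.694%). THBS1 was higher by 1.23 ± 0.27 (adjusted p = 0.00836), CCN2 by 1.01 ± 0.22 (adjusted p = 0.00683) and CCN1 by 0.83 ± 0.16 (adjusted p = 0.00214). POSTN was lower by -0.79 ± 0.20 (adjusted p = 0.0287). None of the 4 had overlapping libraries.

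The POSTN difference ended without IL-1β replicate 2 (adjusted p = 0.149) or 3 (0.0755), or TNF replicate 1 (0.0535), 3 (0.126) or 4 (0.128), and that of CCN2 without TNF replicate 2 (0.0535). FN1, TGFBI, FBLN1 and SPARC fell after both cytokines, and the direct difference was not called for any of them, with log2 values between -0.20 and 0.21. The fold condition left 0 members (0.368% of all genes).

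Between the interferons, 5 members were lower after IFNγ than after IFNα and 0 higher, beside 4.93% of all genes that were lower. THBS2 differed by -1.08 ± 0.27 (adjusted p = 0.00617), CCN2 by -1.03 ± 0.21 (adjusted p = 0.000574), SPARC by -0.99 ± 0.19 (adjusted p = 0.000278), CCN1 by -0.67 ± 0.16 (adjusted p = 0.00336) and TGFBI by -0.53 ± 0.13 (adjusted p = 0.00567). In each case the 4 IFNγ libraries lay below the 4 IFNα libraries. With all genes of any count the CCN1 and TGFBI differences missed the threshold (adjusted p = 0.0574 and 0.0750), as did TGFBI with only the 2 groups (0.0930). The fold condition left 0 members, where 2.74% of all genes passed.

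OSM and IL-6 both signal through the gp130 receptor chain. OSM libraries were higher for THBS1 (1.31 ± 0.27, adjusted p = 0.00141) and TGFBI (0.50 ± 0.13, adjusted p = 0.0229), 2 of 10 members beside 0.988% of all genes. THBS2 was not called (0.75 ± 0.25, adjusted p = 0.128), but was with only the 2 groups in the fit (0.03995). The TGFBI difference ended without IL-6 replicate 1 (adjusted p = 0.0524), 3 (0.0710) or 4 (0.0623), OSM replicate 4 (0.115) or with all genes of any count (0.163). The fold condition left 0 members (1.02% of all genes).

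After IL-22 and IL-6, 0 of 10 members were called by edgeR, beside 0% and 0.0105% of all genes. DESeq2 also called 0 members in either (112 and 1 of all genes, with 7193 left without an adjusted p after IL-22), and 0 members had an unadjusted p under 0.05, against 1037 of all genes after IL-22 and 233 after IL-6. The 95% intervals of the 10 log2 fold changes together ran from -0.87 (THBS2) to 0.77 (TNC) after IL-22 and from -0.53 (THBS1) to 0.93 (TNC) after IL-6. The members' changes after both cytokines are thus bounded by these intervals and not shown to be 0.

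Further gene lists were read against the shares of all tested genes called higher and lower, which were 5.37% and 6.09% after TNF, 3.46% and 3.92% after IL-1β, 4.99% and 4.86% after IFNα, and 5.52% and 5.13% after IFNγ. They were 2.61% and 3.08% after TGF-β1, 1.53% and 2.40% after IL-13, 1.42% and 2.54% after OSM, and 0.599% and 0.925% after IL-17A.

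Among 22 other matricellular genes, 10 passed the filter on low counts. EFEMP1 (fibulin-3, an elastic fibre glycoprotein) was called most often, after 5 cytokines. Its mean of 273 CPM without stimulation was 82.6 CPM after TNF, 91.8 CPM after IL-1β, 88.6 CPM after TGF-β1 and 138.2 CPM after IFNγ, all called lower, and 638.2 CPM after OSM, called higher (1.22 ± 0.27, adjusted p = 0.00341). FBLN5, a fibulin of elastic fibre assembly, fell from 103.3 CPM to 31.4 CPM after TNF (-1.74 ± 0.34, adjusted p = 0.000224) and 38.3 CPM after IL-1β (-1.43 ± 0.33, adjusted p = 0.00234).

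SPP1 (osteopontin) was at 0 counts in the 4 unstimulated libraries and at 4 to 20 counts after TNF, a called rise on few counts. CCN3 fell after OSM from 14.5 to 1.88 CPM, and CCN4, also on few counts (3 to 7 without stimulation), was at 0 counts in all TGF-β1 libraries. In this list the counts of called genes (higher and lower) were 1 and 2 after TNF, 0 and 2 after IL-1β, 0 and 1 after IFNγ, 0 and 2 after TGF-β1 and 1 and 1 after OSM, and 0 after the other 5 cytokines, where edgeR gave 0 to 2 an unadjusted p under 0.05. Their median log2 fold change was -0.87 after TNF, -0.83 after IL-1β and between -0.30 and 0.14 after the others.

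Of 14 genes of elastic fibre and adhesive glycoproteins, 10 were tested. TGF-β1 raised 3 and lowered 3 of them, beside 2.61% and 3.08% of all genes. LTBP2, which binds fibrillin, rose from 26.5 to 67.5 CPM (1.35 ± 0.34, adjusted p = 0.0113) and ELN from 1.89 to 12.7 CPM, while FBN2 fell from 92.0 to 21.8 CPM (-2.09 ± 0.55, adjusted p = 0.0145) and NID1 from 111.6 to 51.4 CPM. The ELN level without stimulation lay within the limits of detection of the libraries (1.39 to 3.85 CPM). IL-1β raised 1 (ELN) and lowered 4, TNF lowered 3, IFNα lowered 3, and IFNγ raised 1 (MFAP4) and lowered 2. FBN1, the main fibrillin, was lower after TNF (297.7 CPM), IFNα (259.9 CPM) and IFNγ (241.4 CPM) than without stimulation (483.8 CPM). By edgeR 0 of the 10 were called after IL-13 (6 at an unadjusted p under 0.05), OSM (2), IL-6 (0), IL-22 (2) and IL-17A (2). The median of the 10 was 0.67 after TGF-β1, -0.52 after TNF and -0.48 after IL-1β.

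Of 14 receptors of the members, 12 were tested. After IL-13 ITGB8, the β chain of the integrin that activates latent TGF-β, rose from 219 to 522.4 CPM (1.26 ± 0.37, adjusted p = 0.0386) and ITGB1, the common β1 chain, fell from 2769 to 1836 CPM (-0.59 ± 0.12, adjusted p = 0.0015). ITGA4 fell after TNF, IL-1β, IFNα, IFNγ and TGF-β1, from 27.9 CPM to between 3.70 CPM (TNF, near the limit of detection) and 11.2 CPM (IFNα). ITGAV, the αv chain that pairs into receptors of periostin, fell from 315.7 CPM to 127.8 CPM after IFNα (-1.30 ± 0.24, adjusted p = 0.000104) and 151.5 CPM after IFNγ (-1.06 ± 0.24, adjusted p = 0.00203). CD47, a receptor of thrombospondin-1, fell after TGF-β1 from 470.3 to 243 CPM (-0.95 ± 0.25, adjusted p = 0.0132).

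Across the 12 receptors the counts of called genes (higher and lower) were 0 and 2 after TNF, 1 and 2 after IL-1β, 1 and 4 after IFNα, 0 and 3 after IFNγ, 1 and 2 after TGF-β1, 1 and 1 after IL-13, 0 and 1 after IL-17A, and 0 after OSM, IL-6 and IL-22 (2, 0 and 3 at an unadjusted p under 0.05 in edgeR). Their median log2 fold change was between -0.56 after IFNγ and 0.07 after IL-13.

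Since CCN1 and CCN2 are targets of YAP and TEAD, 20 further target genes of this pathway were read, of which 16 were tested. After TGF-β1, which raised CCN2, 1 rose and 4 fell, among the latter LATS2, from 61.4 to 24.5 CPM (-1.32 ± 0.27, adjusted p = 0.00112). After IFNα 2 rose and 2 fell, with NT5E (CD73) from 44.8 to 163.9 CPM (1.87 ± 0.37, adjusted p = 0.00026) and PTPN14 from 37.3 to 12.4 CPM (-1.57 ± 0.37, adjusted p = 0.00202).

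IL-1β, which lowered CCN1 and CCN2, lowered 7 of the 16 and raised 0, with MYOF from 75.3 to 29.3 CPM (-1.36 ± 0.27, adjusted p = 0.000327) and IGFBP3 from 356 to 172.2 CPM (-1.05 ± 0.22, adjusted p = 0.000918). TNF lowered 6, OSM 6, IFNγ 5, IL-13 2 and IL-17A 2 of the 16 (6.09%, 2.54%, 5.13%, 2.40% and 0.925% of all genes), with 0 raised after any of them, and after IL-22 and IL-6 edgeR called 0 (5 and 0 at an unadjusted p under 0.05). The median of the 16 was -0.91 after IL-1β, -0.77 after OSM, -0.58 after TGF-β1 and -0.06 after IFNα. IGFBP3 fell most after IL-13, to 112.9 CPM (-1.66 ± 0.23, adjusted p = 1.92e-06).

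Fibroblast markers also moved, and their part in the results above was not tested. After TNF 5 of 8 fell and 0 rose, among them COL1A1 (from 10640 to 3498 CPM) and THY1 (from 97.8 to 28.8 CPM). After IL-1β 4 fell, after TGF-β1 4, after IFNα 2 and after IFNγ 2 (COL1A2 and COL3A1 after both interferons), and after IL-17A 1 (THY1), with 0 raised after any of these. After IL-13 VIM alone was called (780 to 1399 CPM) and after OSM DCN alone (15670 to 23050 CPM), both higher. The summed mean level of the 8 markers was 35660 CPM without stimulation. It was 24220 CPM after IFNγ, 24340 CPM after TNF, 26610 CPM after TGF-β1, 27210 CPM after IL-1β and 29940 CPM after IFNα, between 35240 and 36990 CPM after IL-17A, IL-6 and IL-22, 39290 CPM after OSM and 45420 CPM after IL-13.

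The libraries of a group often split by replicate number in these genes. Replicates 1 and 2 both exceeded 3 and 4 in 9 of 11 groups for SPARC, 8 for FN1 and 7 for TGFBI, and for POSTN replicates 3 and 4 both exceeded 1 and 2 in 6 groups. Over all tested genes the mean was 2.18 and 2.12 groups of 11, and 1.80% of genes split in the same direction in 7 groups or more. The labels name nothing that replicate numbers stand for.

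The 5 genes whose group means followed POSTN most closely, by Pearson's r of log2 CPM over 11 groups among 6160 genes of at least 20 CPM in some group, were CCL26 (r = 0.946), SOX11 (0.907), PICALM (0.892), SRI (0.868) and COL6A1 (0.854). The likeness rested on the IL-13 group: without it r was 0.585, 0.303, 0.469, 0.381 and -0.214. Among members, FN1 and TGFBI were the most alike over the 11 groups (r = 0.888), and THBS2 and CCN2 the least (r = -0.293). The groups are of the same line and r was not tested, so these are descriptions only.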

How the data were processed

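The members and gene lists were chosen with earlier results of these data known. Libraries were grouped by the sample labels, 4 per group. The authors checked reads (FastQC 0.11.9, MultiQC 1.14), quantified them with kallisto 0.48.0, and deposited estimated counts per symbol; hg38 is named in the submitters' processing notes, and transcriptome release and strand are not given in the sources used here. Here the estimated counts were rounded, filtered with filterByExpr, scaled by TMM factors and fitted for all 44 libraries in edgeR 4.0.16 (R 4.3.3; quasi-likelihood, 1 coefficient per group), with Benjamini-Hochberg adjustment over 9513 genes. The code was tested on simulated data, with changes larger than most of those called here and no split by replicate number. Named genes were the 10 members and, of each other list, at most 4 called genes per comparison with the largest change. Counts of overlapping genes were at most 1.3% of a member's. Replicate pairs differed by at least 3.17 times sampling variance per degree of freedom. Limits of detection cover counting error only. Positions come from GENCODE 44. Alternatives included DESeq2 1.42.0, other filters, scaling, fewer libraries and a replicate block. A planned response gene and a planned motif are not reported here.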

Additional observations from a re-analysis of the deposited data

Results flagged for a closer look

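In 6 of 110 groups of 4 libraries (10 members by 11 groups) 1 library stood apart from the other 3 by Dixon's 95% criterion for the gap over the range, where chance gives about 1 in 20, or 5.5. POSTN was at 449.1 CPM in IL-17A replicate 4, the others being at 335.7 to 348.3 CPM. TNC was at 446.7 CPM in IFNγ replicate 1, the others being at 238.5 to 257.5 CPM. TGFBI was at 2002 CPM in OSM replicate 4 (others 1572 to 1644 CPM) and CCN1 at 129.2 CPM in TGF-β1 replicate 4 (others 167 to 173.1 CPM). In IL-22 replicate 3 2 members stood high, THBS2 at 87.2 CPM (others 72.2 to 73.1 CPM) and CCN2 at 392.2 CPM (others 291 to 306.8 CPM). IL-22 replicate 3 had the lowest total count of all 44 libraries (742173).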

How the results depend on the processing

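Of 140 values (10 members in 14 comparisons), 52 were called, and 33 of these were called under every alternative but the fold condition. Libraries did not overlap in 54 of the 140 values, and in all but 3 of the 52 called. Such gaps are therefore no evidence apart from the calls, and their share over all genes was not counted. Called values changed direction under 0 alternatives. DESeq2's size factors and the filter of 10 counts in 4 libraries kept all 52 calls, as did DESeq2's Wald test, which added 3. With only the 2 groups in the fit, 8 of the 52 calls ended and 1 value was added. Members called were then 1 after IFNγ, 2 after TGF-β1 and 1 after IL-17A. Of all genes, 451 of 7449, 233 of 7446 and 99 of 7463 were then called. The main fit called 1013, 541 and 145 of 9513. The calls of POSTN after IFNα and of TGFBI after OSM and between the interferons also ended. With all genes of any count 8 of the 52 calls ended and 4 values were added. Members called were then 3 between IFNγ and IFNα and 1 between OSM and IL-6. Of all 23518 genes, 783 and 338 were then called, where the main fit called 893 and 254 of 9513. The calls of CCN1 after IFNα and IL-17A, FBLN1 after IL-13 and TGFBI after OSM and IFNγ also ended. With the fold condition the members called were 1 after IL-1β, 1 after TGF-β1, 2 after IL-13 and 3 between IL-13 and TGF-β1. They were 0 after TNF, IFNα, IFNγ, OSM and IL-17A and between TNF and IL-1β, IFNγ and IFNα, and OSM and IL-6. Leaving out 1 library gave 1 to 4 members after IFNα (1 without unstimulated replicate 4), 1 to 3 after IFNγ (1 without IFNγ replicate 4), 2 to 4 after OSM, 0 to 2 after IL-17A (0 without IL-17A replicate 2 or 4) and 1 to 2 between OSM and IL-6. Calls over all genes were not counted with 1 library left out. Fewer samples or more genes tested are part of these alternatives, and other causes were not tested.

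Over all tested genes the deviations of same-numbered libraries from their group means correlated between -0.0865 and 0.281 over 40 pairs, with all 4 pairs over 0.1 in 0 of 10 cytokines, so the numbers were not taken as a pairing, although SPARC, FN1 and TGFBI split by number in 9, 8 and 7 of 11 groups. With a replicate block all 52 calls were kept and 3 added (THBS2 and FBLN1 after TGF-β1, adjusted p = 0.0350 and 0.0120, and SPARC after IL-17A, 0.0211), giving 6 members after TGF-β1 and 3 after IL-17A. Calls over all 9513 genes also went from 541 to 638 after TGF-β1 and from 145 to 223 after IL-17A. A block of replicates 1 and 2 against 3 and 4, chosen after seeing the data, added the same 3 values.

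With 742173 to 2213424 counts per library every member had at least 39 counts in every library. Of the wider lists, 12 of 22 other matricellular genes were too low to test.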
